A study of Mus musculus with 12 samples.

Results

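Endothelial transcripts were followed in preparations of mouse alveolar type 2 epithelial cells (AEC2), the surfactant-making cells of the lung, through 34 marker genes of blood vessel endothelium chosen by name. Of these, 29 were among the 16080 genes measured. Emcn, Robo4, Sox17, Gpihbp1 and Aplnr had no value and were not analysed here. RNA came from 12 samples of female Bl6 mice at postnatal day 56, with 4 libraries for each of 3 genotypes of SP-C, the surfactant protein that AEC2 secrete. The genotypes were the mutant C185G, C185Gneo (named in the series design as a hypomorphic control) and WT. Tamoxifen, 200 mg per kg, was injected intraperitoneally on 2 days in all groups, and AEC2 were isolated on day 7. The labels name no Cre driver or promoter, and whether each library stands for its own animal is not stated, so the p-values reflect library-to-library spread, which may be technical. Groups follow the genotype field. The titles do not fully match that field: C185G appears in titles of C185Gneo-genotype libraries, while C185G-genotype libraries are titled with a different code, so a reading by title could swap the groups. Sftpc, the gene of SP-C, averaged 2.83e+03 ± 256.2 normalized CPM in C185G, 895.2 ± 142.8 in C185Gneo and 7.47e+03 ± 193.6 in WT (SD, n = 4 each), lowest in the group that the series design calls hypomorphic.

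Endothelial cells line all blood vessels, and in the alveolus a capillary net lies directly against the epithelium. They are joined through VE-cadherin (Cdh5) and PECAM-1, read vascular growth signals through the VEGF receptors and the angiopoietin receptor TIE2, and take their identity from ETS and SOX transcription factors. Per the labels, the AEC2 were obtained from Dispase-treated perfused lungs. Adherence to plastic took out mesenchymal cells and magnetic beads took out CD45-positive cells, and no step directed at endothelial cells is named. Endothelial RNA in the libraries was therefore read as coming from residual vascular cells where a marker is restricted to them, and from other cells too where it is not. Cells were not counted, so the RNA does not give their number.

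Libraries held 15659512 to 23444287 counts, and 1 count was worth 0.0428 to 0.0616 normalized CPM (CPM, a count as a share of the library's total, on the authors' scaling). The AEC2 label matched its markers: all 12 AEC2 genes listed were measured, and together they gave 15580 to 19200 normalized CPM in C185G, 39960 to 43820 in C185Gneo and 41890 to 49150 in WT. The 29 endothelial markers together gave 366.5 to 401.4 in C185G, 368.0 to 513.6 in C185Gneo and 386.3 to 506.1 in WT. They took 0.0383 to 0.0415% of all counts in C185G, 0.0367 to 0.0503% in C185Gneo and 0.0372 to 0.0503% in WT. Every one of the 29 had counts in every library.

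Most endothelial markers fell in C185G, whichever control genotype it was set against. Against WT, 16 of the 29 fell, 1 rose and 12 did not pass the test, with a median log2 fold change of -0.60. Among all genes measured 27.8% fell and 27.3% rose in this comparison, with a median of 0.00. Against C185Gneo, 18 fell, 1 rose and 10 did not pass the test, with a median of -0.73, where 28.7% of all genes fell and 29.2% rose (57.8% called in all, and 55% against WT). The share of markers that fell was 55.2% against WT and 62.1% against C185Gneo. The marker that rose was Cd34 in both comparisons. Both comparisons use the same C185G libraries, so the second is no independent repeat of the first. In total 15 markers fell in both, Icam2 fell against WT only, and Cldn5, Plvap and Car4 fell against C185Gneo only. Whether those 4 genes respond differently to the choice of control was tested as C185Gneo against WT, where none of them passed. In whole-preparation RNA, fewer endothelial cells and less of each transcript per cell cannot be told apart. Calls are at a Benjamini-Hochberg adjusted p under 0.05 over all 16080 genes, from 1 limma fit of the 12 libraries.

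**Figure D1:**
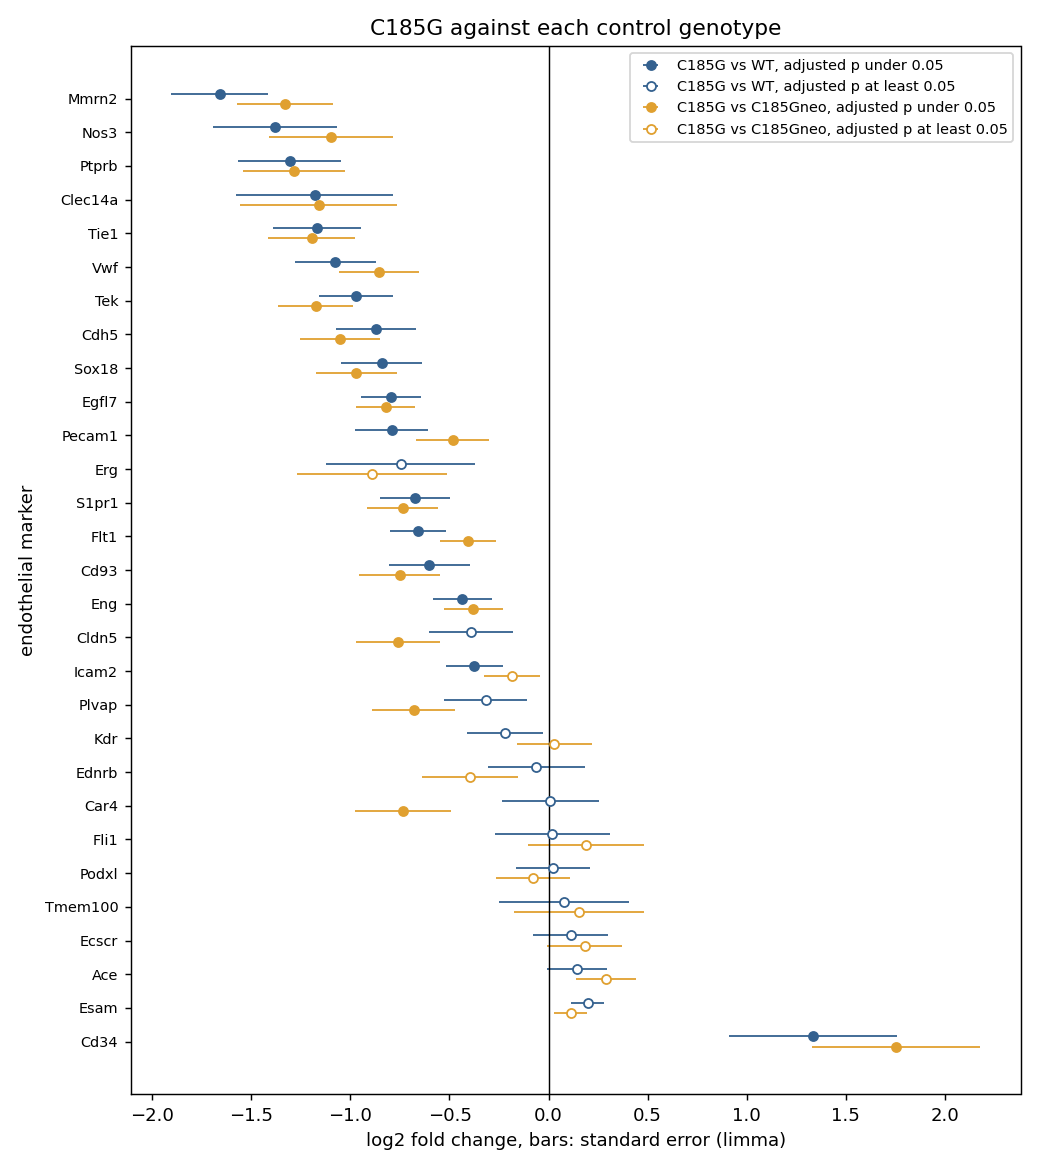
Log2 fold change of each of the 29 endothelial markers in C185G against WT (blue) and in C185G against C185Gneo (orange), with bars for the standard error of the limma fit. Filled points passed an adjusted p under 0.05. Points for 16 and 18 genes lie left of 0 and are filled, and Cd34 alone is filled on the right, at 1.33 and 1.75.

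The promoters of the called markers that hold a motif of the endothelial regulators are shown because ETS and SOX factors are the textbook regulators of these genes. RefSeq promoter windows of GRCm38.p6, the 250 bases before the annotated start, were available for 13 of the 29 markers (18 windows). Both strands were searched for the ETS motifs CCGGAAG and CAGGAAG and the SOX motif AACAAAG, which do not overlap each other in the windows printed. CCGGAAG was in 6.91% of 32851 promoter windows of all genes and in 1 of the 18 marker windows (Car4). CAGGAAG was in 10.8% of all windows and in 4 of the 18, those of Cd34, Egfl7 and Erg. AACAAAG was in 5.03% of all windows and in 1 of the 18 (Tek). The windows below are those of the 3 called markers with the smallest p against WT that hold a motif. They lie at chr2:26583615-26583864 for Egfl7 (1 of its 3 windows), chr4:94739039-94739288 for Tek and chr1:194938571-194938820 for Cd34, all on the plus strand. Capitals mark the motif, whose first base is 81 bases before the start in Egfl7, 27 in Tek and 142 in Cd34. In Cd34 the printed strand reads CTTCCTG, the reverse complement of CAGGAAG.
Egfl7: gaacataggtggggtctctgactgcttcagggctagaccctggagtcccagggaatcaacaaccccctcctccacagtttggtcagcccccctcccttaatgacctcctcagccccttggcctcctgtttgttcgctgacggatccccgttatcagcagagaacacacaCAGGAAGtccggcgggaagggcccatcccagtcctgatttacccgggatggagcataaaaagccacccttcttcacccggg
Tek: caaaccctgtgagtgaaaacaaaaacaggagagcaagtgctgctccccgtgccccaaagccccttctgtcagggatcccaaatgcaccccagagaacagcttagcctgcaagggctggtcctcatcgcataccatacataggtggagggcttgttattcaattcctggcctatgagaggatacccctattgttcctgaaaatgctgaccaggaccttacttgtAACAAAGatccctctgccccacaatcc
Cd34: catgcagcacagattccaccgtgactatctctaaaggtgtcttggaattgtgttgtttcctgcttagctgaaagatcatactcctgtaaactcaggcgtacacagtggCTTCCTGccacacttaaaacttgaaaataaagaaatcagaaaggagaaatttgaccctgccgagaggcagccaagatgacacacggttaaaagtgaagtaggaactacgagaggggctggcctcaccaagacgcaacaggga
Egfl7 and Tek, each with 1 of these motifs, fell in both comparisons, while Cd34, which has the same ETS motif as Egfl7, rose in both. A letter match is a description of the window and not a bound site.

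Secreted and matrix proteins of endothelium fell without exception. All 3 measured markers of this kind passed in both comparisons, with medians of -1.08 against WT and -0.86 against C185Gneo. That is 100% of only 3 genes, where 27.8% of all genes fell against WT and 28.7% against C185Gneo. Mmrn2 (multimerin 2, a glycoprotein of the endothelial matrix; ENSMUSG00000041445, chromosome 14 from 34375465 to 34404287 on the plus strand in GRCm38) had 1.80, 1.91, 1.85 and 1.05 normalized CPM in the C185G libraries, 4.28, 3.39, 3.81 and 5.05 in C185Gneo and 3.60, 4.36, 6.07 and 7.33 in WT. Every C185G library was below every library of the other genotypes, and C185G 4 was the lowest of all 12. Its means were 1.65 ± 0.406 normalized CPM in C185G, 4.13 ± 0.712 in C185Gneo and 5.34 ± 1.68 in WT (SD, n = 4 each), and its log2 fold change of -1.66 (SE 0.243, adjusted p = 6.05e-05) against WT and -1.33 (SE 0.243, adjusted p = 0.000363) against C185Gneo was the largest fall among the markers in each comparison. Vwf (von Willebrand factor, which tethers platelets and is stored in endothelial granules; ENSMUSG00000001930, chromosome 6 from 125546774 to 125686679 on the plus strand) had 29.1, 27.2, 20.5 and 24.1 normalized CPM in the C185G libraries, 42.7, 38.6, 39.5 and 64.8 in C185Gneo and 39.9, 47.9, 55.0 and 73.5 in WT. The C185G libraries again lay below all others, and the highest values were in WT 4 and C185Gneo 4. Vwf stood at -1.08 (SE 0.203, adjusted p = 0.00079) against WT and -0.86 (SE 0.203, adjusted p = 0.00342) against C185Gneo. Egfl7, a secreted angiogenic factor whose locus hosts the endothelial microRNA miR-126 (ENSMUSG00000026921, chromosome 2 from 26580014 to 26593120 on the plus strand), had 3.40, 4.05, 3.60 and 4.13 normalized CPM in the C185G libraries, 7.96, 6.95, 4.82 and 7.61 in C185Gneo and 6.86, 6.11, 7.02 and 6.35 in WT. The 3 genotypes separated into a low C185G group and 2 overlapping control groups, with C185Gneo 3 the lowest of the controls. Its changes were -0.79 (SE 0.15, adjusted p = 0.000514) against WT and -0.82 (SE 0.15, adjusted p = 0.000366) against C185Gneo. Exons of Egfl7 share 264 bases with Gm20532 on the same strand and 64 with Agpat2 on the other strand, and reads there cannot be assigned, since the strand setting of the counting is not given in the sources used here.

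Receptors for VEGF, angiopoietins and other vascular signals fell in 6 of 7 cases in both comparisons, with medians of -0.67 against WT and -0.74 against C185Gneo. The exception was Kdr. The share that fell was 85.7% in each, where 27.8% of all genes fell against WT and 28.7% against C185Gneo. Tie1, an orphan receptor that modulates TIE2 signalling (ENSMUSG00000033191, chromosome 4 from 118471191 to 118490061 on the minus strand), had 2.73, 2.51, 3.05 and 2.59 normalized CPM in the C185G libraries, 5.82, 5.06, 5.77 and 8.998 in C185Gneo and 4.23, 5.21, 7.30 and 8.75 in WT. No C185G library reached 3.1 and no control library was below 4.2. Its means were 2.72 ± 0.238 normalized CPM in C185G, 6.41 ± 1.76 in C185Gneo and 6.37 ± 2.04 in WT (SD, n = 4 each), with changes of -1.17 (SE 0.222, adjusted p = 0.000523) against WT and -1.20 (SE 0.222, adjusted p = 0.000408) against C185Gneo. Tek, the gene of TIE2 itself (ENSMUSG00000006386, chromosome 4 from 94739289 to 94874976 on the plus strand), had 2.83, 2.19, 1.91 and 2.71 normalized CPM in the C185G libraries, 6.03, 5.11, 4.34 and 6.39 in C185Gneo and 3.43, 4.75, 5.41 and 5.49 in WT. C185G 1, the highest mutant library, was still below WT 1, the lowest of the controls. The log2 fold changes of Tek were -0.97 (SE 0.188, adjusted p = 0.000607) against WT and -1.18 (SE 0.188, adjusted p = 0.00012) against C185Gneo. Ptprb (VE-PTP, the phosphatase that restrains TIE2 and VE-cadherin; ENSMUSG00000020154, chromosome 10 from 116275523 to 116389535 on the plus strand) had 6.80, 7.31, 5.07 and 7.39 normalized CPM in the C185G libraries, 12.9, 14.7, 15.3 and 22.9 in C185Gneo and 10.2, 14.1, 19.2 and 25.5 in WT. Its control libraries covered a wide range, and all of them were above the C185G libraries. Ptprb changed by -1.31 (SE 0.259, adjusted p = 0.00101) against WT and -1.28 (SE 0.259, adjusted p = 0.00108) against C185Gneo. The receptor and its 2 partners on the angiopoietin axis thus all fell in both comparisons.

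Of the VEGF receptors among the 29 markers, Flt1 fell in both comparisons and Kdr passed in neither. Flt1 (VEGFR1, which binds VEGF-A tightly and limits its signal; ENSMUSG00000029648, chromosome 5 from 147561604 to 147726011 on the minus strand) had 2.06, 2.51, 2.07 and 2.40 normalized CPM in the C185G libraries, 3.08, 2.50, 3.21 and 3.25 in C185Gneo and 3.32, 3.40, 3.57 and 4.07 in WT. The C185G and WT groups did not overlap, whereas C185Gneo 2 was just below C185G 2. The changes were -0.66 (SE 0.142, adjusted p = 0.00133) against WT and -0.41 (SE 0.142, adjusted p = 0.0246) against C185Gneo. The Flt1 call against C185Gneo was lost without C185G 1 or 3 or C185Gneo 1, 3 or 4 (adjusted p = 0.0511 to 0.0636), and with library totals as the scaling (0.0547). Kdr (VEGFR2, the main signalling receptor of VEGF; ENSMUSG00000062960, chromosome 5 from 75932827 to 75978458 on the minus strand) had 67.5, 72.5, 80.01 and 59.2 normalized CPM in the C185G libraries, 45.8, 80.9, 67.2 and 85.9 in C185Gneo and 69.5, 70.5, 85.2 and 102.4 in WT. The genotypes overlapped widely, and C185Gneo 1 was the lowest library and WT 4 the highest. Kdr averaged 69.8 ± 8.75 normalized CPM in C185G, 69.9 ± 17.9 in C185Gneo and 81.9 ± 15.5 in WT (SD, n = 4 each), and its changes of -0.22 (SE 0.191, adjusted p = 0.351) against WT and 0.03 (SE 0.191, adjusted p = 0.904) against C185Gneo did not pass the test. The difference between the responses of Flt1 and Kdr was not tested.

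The other receptors of this group were Eng and S1pr1. Eng (endoglin, a co-receptor for BMP9 and TGF-beta) had 7.98, 5.87, 6.16 and 8.07 normalized CPM in the C185G libraries, 8.72, 8.50, 8.69 and 10.4 in C185Gneo and 7.49, 8.77, 11.3 and 10.5 in WT. WT 1 was within the C185G range, while all C185Gneo libraries were above it by a small margin. Its changes were -0.43 (adjusted p = 0.023) against WT and -0.38 (adjusted p = 0.041) against C185Gneo. The call against WT was lost without C185G 2 or 3 or WT 3 or 4 (adjusted p = 0.0659 to 0.0768), and with library totals as the scaling (0.0631), and the call against C185Gneo without C185G 2 or 3 or C185Gneo 1, 2, 3 or 4 (adjusted p = 0.0529 to 0.121), and with library totals as the scaling (0.0914). S1pr1 (the sphingosine-1-phosphate receptor that stabilises the endothelial barrier; ENSMUSG00000045092, chromosome 3 from 115710433 to 115715072 on the minus strand) had 3.45, 2.70, 2.67 and 2.65 normalized CPM in the C185G libraries, 4.96, 4.45, 3.99 and 5.86 in C185Gneo and 4.004, 3.56, 5.91 and 5.12 in WT. C185G 1 was the highest mutant library and lay just below WT 2, the lowest control library. S1pr1 changed by -0.67 (SE 0.178, adjusted p = 0.00556) against WT and -0.74 (SE 0.178, adjusted p = 0.00294) against C185Gneo.

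**Figure D2:**
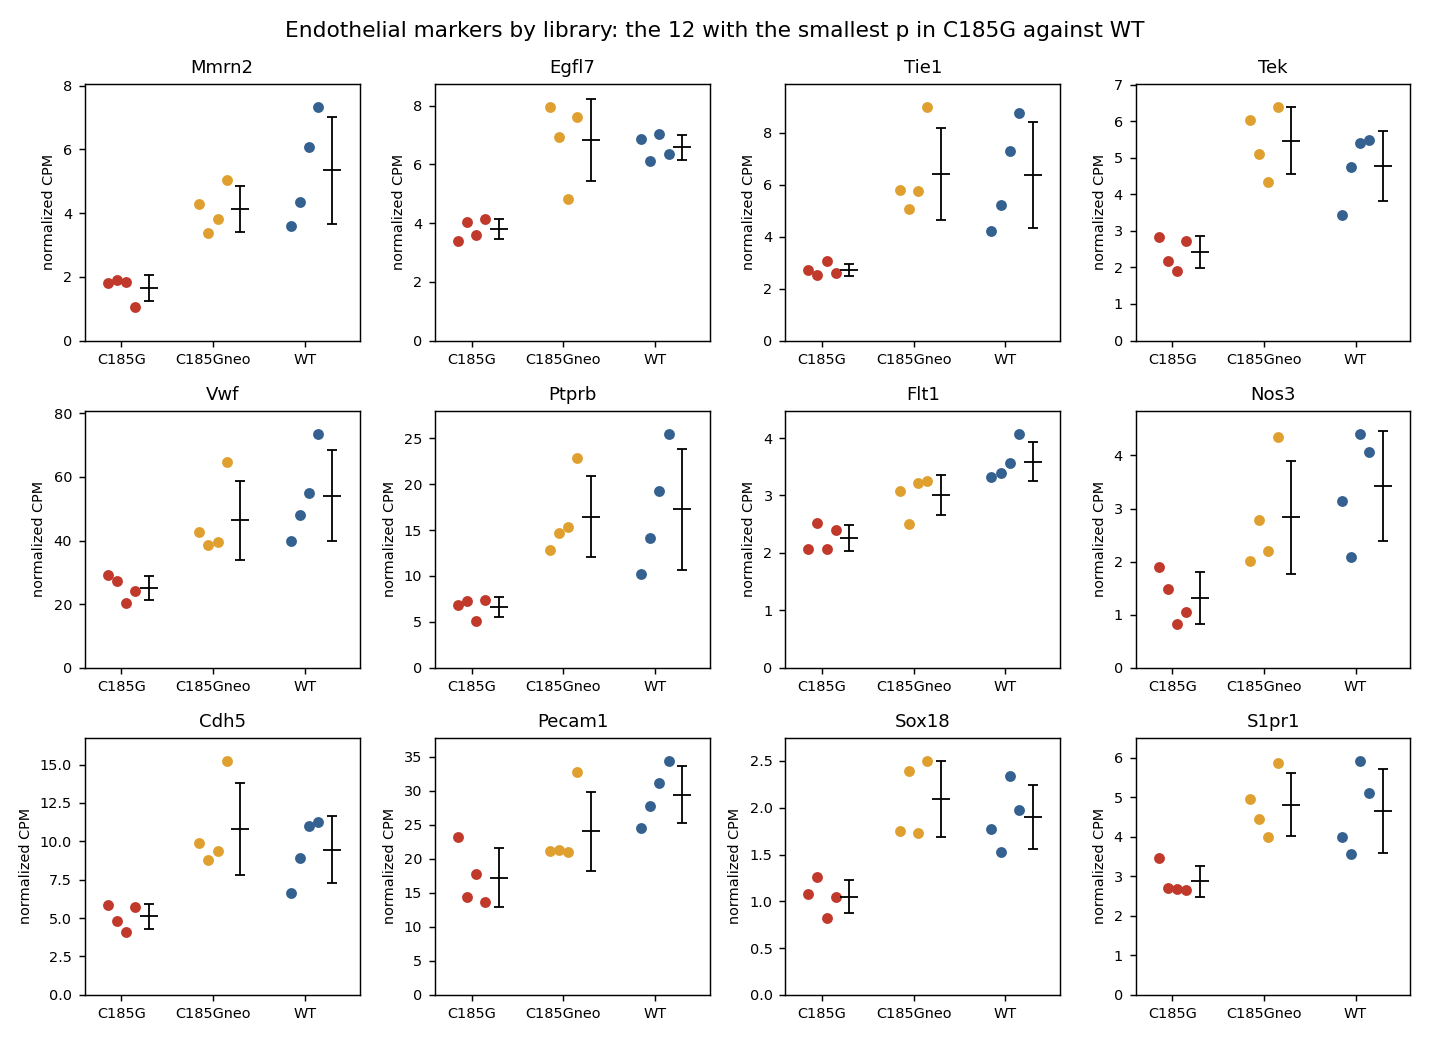
Normalized CPM in each library for the 12 endothelial markers with the smallest p in C185G against WT; points are libraries 1 to 4 of a genotype from left to right, and the bars give the mean and SD. In all 12 panels the C185G points lie below the WT points, and in 10 of them, all but Flt1 and Pecam1, also below the C185Gneo points. The genes were picked by that p, so their separation from WT is in part a product of the choice. Markers not shown, such as Eng and Clec14a, overlapped with WT, and the share of all genes without overlap was not counted.

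Junction and surface adhesion markers were mixed: 3 of 7 fell and 1 rose in each comparison, with medians of -0.37 against WT and -0.18 against C185Gneo. The shares were 42.9% lower and 14.3% higher in each comparison. Of all genes 27.8% fell and 27.3% rose against WT, and 28.7% fell and 29.2% rose against C185Gneo. Cdh5 (VE-cadherin, the adherens junction protein that defines endothelium; ENSMUSG00000031871, chromosome 8 from 104101625 to 104144511 on the plus strand) had 5.82, 4.80, 4.09 and 5.73 normalized CPM in the C185G libraries, 9.88, 8.78, 9.34 and 15.2 in C185Gneo and 6.64, 8.88, 11.03 and 11.3 in WT. All C185G libraries were below all control libraries, and C185Gneo 4 was the highest. Its means were 5.11 ± 0.823 normalized CPM in C185G, 10.8 ± 2.97 in C185Gneo and 9.46 ± 2.17 in WT (SD, n = 4 each), with changes of -0.87 (SE 0.202, adjusted p = 0.00245) against WT and -1.06 (SE 0.202, adjusted p = 0.000556) against C185Gneo. Pecam1 (CD31, also present on platelets and leukocytes; ENSMUSG00000020717, chromosome 11 from 106654217 to 106750628 on the minus strand) had 23.2, 14.3, 17.8 and 13.6 normalized CPM in the C185G libraries, 21.1, 21.2, 21.1 and 32.8 in C185Gneo and 24.5, 27.8, 31.1 and 34.3 in WT. The C185G libraries were below the WT libraries, but C185G 1 was above 3 of the C185Gneo libraries and C185Gneo 4 was well above those 3. Pecam1 changed by -0.79 (SE 0.185, adjusted p = 0.00296) against WT and -0.48 (SE 0.185, adjusted p = 0.0401) against C185Gneo. Its call against C185Gneo was lost without C185G 2, 3 or 4, C185Gneo 4 or WT 2 or 3 (adjusted p = 0.0501 to 0.118), and with limma without the trend (0.0554), with library totals as the scaling (0.07) and with only the 8 libraries compared (0.0631).

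Of the remaining junction markers, Cldn5 and Icam2 each passed in 1 comparison. Cldn5 (claudin 5, the tight junction protein of endothelium) had 3.30, 3.26, 2.94 and 3.94 normalized CPM in the C185G libraries, 5.13, 5.45, 4.40 and 8.48 in C185Gneo and 3.15, 4.13, 5.24 and 5.42 in WT. WT 1 was within the C185G range and the C185Gneo libraries were all above it. The changes were -0.39 (adjusted p = 0.134) against WT and -0.76 (adjusted p = 0.00721) against C185Gneo, and the comparison with WT passed without WT 1 (adjusted p = 0.0413). Icam2 (an adhesion molecule of endothelium and platelets) had 3.09, 3.12, 3.11 and 2.83 normalized CPM in the C185G libraries, 2.99, 3.33, 3.27 and 4.35 in C185Gneo and 3.38, 3.85, 4.24 and 4.38 in WT. Its C185G values lay below all WT values and overlapped those of C185Gneo. It changed by -0.37 (adjusted p = 0.0395) against WT and -0.18 (adjusted p = 0.285) against C185Gneo, and the call against WT was lost without C185G 1, 2, 3 or 4 or WT 2, 3 or 4 (adjusted p = 0.0526 to 0.105), and with library totals as the scaling (0.0975) and with library quality weights (0.0571).

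Cd34, a sialomucin of endothelial cells that is also carried by blood progenitors and by lung fibroblasts, was the marker that rose. It had 34.6, 53.8, 44.6 and 49.3 normalized CPM in the C185G libraries, 4.96, 14.4, 16.3 and 26.99 in C185Gneo and 13.04, 16.5, 22.2 and 21.1 in WT. All C185G libraries were above all others, and C185Gneo 1 was the lowest of the 12. Cd34 averaged 45.6 ± 8.23 normalized CPM in C185G, 15.7 ± 9.04 in C185Gneo and 18.2 ± 4.26 in WT (SD, n = 4 each), with log2 fold changes of 1.33 (SE 0.424, adjusted p = 0.0207) against WT and 1.75 (SE 0.424, adjusted p = 0.00464) against C185Gneo. The call against WT was lost without C185G 4 or WT 1 (adjusted p = 0.0522 to 0.0558). Summed levels of the 15 mesenchymal markers were also above all other libraries in C185G and lowest in C185Gneo 1, as given below; their part in the Cd34 result was not tested. Exons of Cd34 share 148 of 7290 bases with Gm16897 on the other strand. Esam and Podxl, an endothelial adhesion molecule and a sialomucin related to CD34, did not pass in either comparison. Esam ranged over 121.4 to 158.4 normalized CPM in C185G, 125.5 to 133 in C185Gneo and 112.9 to 138.4 in WT and changed by 0.20 (adjusted p = 0.0613) against WT and 0.11 (adjusted p = 0.274) against C185Gneo. Esam was higher in C185G than in WT with an adjusted p under 0.05 without C185G 1 or 2 or WT 1 (adjusted p = 0.0102 to 0.0492), and with quantile normalization (0.035) and with library totals as the scaling (0.00799). Podxl ranged over 11.4 to 16.8 normalized CPM in C185G, 11.6 to 21.5 in C185Gneo and 10.8 to 16.1 in WT, with changes of 0.02 (adjusted p = 0.932) against WT and -0.08 (adjusted p = 0.736) against C185Gneo.

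Among other surface and signalling proteins 2 of 4 fell in both comparisons, Cd93 and Clec14a, a related pair of C-type lectin receptors. Both bind MMRN2, the protein of the marker with the largest fall. The pair is 50% of this group, where 27.8% of all genes fell against WT and 28.7% against C185Gneo. Cd93 had 4.22, 4.28, 3.27 and 4.07 normalized CPM in the C185G libraries, 5.69, 6.06, 5.47 and 10.3 in C185Gneo and 4.52, 5.77, 6.80 and 7.27 in WT. The C185G group lay below both other groups, and C185Gneo 4 stood above the remaining controls. Its changes were -0.60 (adjusted p = 0.0225) against WT and -0.75 (adjusted p = 0.00633) against C185Gneo, and the call against WT was lost without C185G 3 or WT 3 or 4 (adjusted p = 0.0627 to 0.0681). Clec14a, with 8 to 42 counts per library, had 1.39, 0.372, 0.600 and 0.616 normalized CPM in the C185G libraries, 1.45, 0.945, 1.61 and 2.38 in C185Gneo and 0.973, 1.41, 1.56 and 2.59 in WT. C185G 1 lay within the control ranges, and the other mutant libraries were below all of them. Clec14a changed by -1.18 (adjusted p = 0.0217) against WT and -1.16 (adjusted p = 0.0227) against C185Gneo. Its call against WT was lost without C185G 2 or 3 or WT 4 (adjusted p = 0.0501 to 0.0705), and its call against C185Gneo without C185G 2 or 3 or C185Gneo 4 (adjusted p = 0.0512 to 0.0733). Ecscr, a cell surface regulator of VEGF receptor signalling, ranged over 1.42 to 1.97 normalized CPM in C185G, 1.33 to 1.86 in C185Gneo and 1.41 to 1.97 in WT, and Tmem100, a BMP-induced membrane protein, over 0.981 to 1.17 normalized CPM in C185G, 0.813 to 1.28 in C185Gneo and 0.622 to 1.73 in WT. Both overlapped across all genotypes and neither passed the test.

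Transcription factors of endothelium were represented by Sox18, Erg and Fli1, and 1 of the 3 fell in both comparisons. That is 33.3%, where 27.8% of all genes fell against WT and 28.7% against C185Gneo. Sox18, an SRY-box factor of vessel and lymphatic development (ENSMUSG00000046470, chromosome 2 from 181669836 to 181671640 on the minus strand), had 1.08, 1.26, 0.818 and 1.05 normalized CPM in the C185G libraries, 1.75, 2.39, 1.73 and 2.50 in C185Gneo and 1.77, 1.53, 2.34 and 1.97 in WT. The C185G group lay below both control groups. Sox18 changed by -0.84 (SE 0.204, adjusted p = 0.00322) against WT and -0.97 (SE 0.204, adjusted p = 0.00112) against C185Gneo. Erg, an ETS factor that maintains endothelial identity, ranged over 0.862 to 1.02 normalized CPM in C185G, 1.20 to 2.03 in C185Gneo and 0.572 to 2.90 in WT. The C185G libraries were below all C185Gneo libraries, while WT held both the lowest and the highest value of the 12, in WT 1 and WT 4. Its changes of -0.75 (adjusted p = 0.109) against WT and -0.89 (adjusted p = 0.0571) against C185Gneo did not pass. Against WT they passed without WT 1 (adjusted p = 0.0012), and against C185Gneo they passed without C185Gneo 1 or WT 1 or 4 (adjusted p = 0.00451 to 0.0375), and with only the 8 libraries compared (0.00602). Fli1, the ETS factor shared with blood cells, ranged over 1.35 to 2.27 normalized CPM in C185G, 1.16 to 2.44 in C185Gneo and 1.13 to 2.59 in WT and did not pass, with changes of 0.02 (adjusted p = 0.961) against WT and 0.19 (adjusted p = 0.596) against C185Gneo.

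Of the markers of capillary specialisation, 1 of 5 fell against WT and 3 of 5 fell against C185Gneo, with medians of -0.06 and -0.68. These are 20% and 60%, where 27.8% and 28.7% of all genes fell. Nos3 (the nitric oxide synthase of endothelium; ENSMUSG00000028978, chromosome 5 from 24364810 to 24384474 on the plus strand) had 1.91, 1.49, 0.818 and 1.05 normalized CPM in the C185G libraries, 2.01, 2.78, 2.20 and 4.35 in C185Gneo and 3.15, 2.09, 4.40 and 4.07 in WT. All C185G libraries were below all others, with C185G 3 the lowest. Nos3 changed by -1.38 (SE 0.313, adjusted p = 0.00208) against WT and -1.10 (SE 0.313, adjusted p = 0.00857) against C185Gneo. Its exons share 1040 of 4132 bases with Gm15587 and 294 with Atg9b, both on the other strand, so part of its reads cannot be assigned. Plvap (the diaphragm protein of endothelial fenestrae and caveolae) had 2.58, 3.73, 2.67 and 4.25 normalized CPM in the C185G libraries, 4.96, 5.72, 4.34 and 5.92 in C185Gneo and 3.26, 3.17, 5.29 and 4.81 in WT. C185G and WT overlapped, and C185G lay just below C185Gneo. Its changes were -0.32 (adjusted p = 0.216) against WT and -0.68 (adjusted p = 0.0126) against C185Gneo. Car4 (a carbonic anhydrase that marks the aerocyte type of alveolar capillary cell), with 8 to 27 counts per library, had 0.618, 0.745, 0.600 and 0.554 normalized CPM in the C185G libraries, 1.16, 0.834, 1.25 and 1.04 in C185Gneo and 0.858, 0.453, 0.557 and 0.678 in WT. C185G and WT overlapped, and all C185Gneo libraries stood above C185G. Car4 changed by 0.01 (adjusted p = 0.977) against WT and -0.73 (adjusted p = 0.0194) against C185Gneo, and the call against C185Gneo was lost without C185Gneo 3 (adjusted p = 0.0572). Ednrb, the endothelin B receptor and a second aerocyte marker, ranged over 1.08 to 1.79 normalized CPM in C185G, 1.33 to 2.50 in C185Gneo and 0.973 to 1.62 in WT and did not pass. Ace, the angiotensin-converting enzyme of the capillary surface, ranged over 14.9 to 23.8 normalized CPM in C185G, 13.5 to 17.9 in C185Gneo and 13.8 to 19.4 in WT and did not pass either, with changes of 0.14 (adjusted p = 0.446) against WT and 0.29 (adjusted p = 0.12) against C185Gneo. Ace was higher against C185Gneo when C185Gneo 4 and WT 4 were both left out (adjusted p = 0.0482).

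Levels of different genes were compared per kb of exon. The length was that of all annotated exons of a gene joined, 16064 bases for Vwf and 13504 for Flt1. The order of genes therefore depends on the annotation. Esam was the highest marker, with 49.2 normalized CPM per kb in C185G, 45.3 in C185Gneo and 42.8 in WT. Kdr came next, with 7.73, 7.74 and 9.07 in the same order of genotypes. In WT these were followed by Pecam1 (4.73), Vwf (3.37) and Cldn5 (3.17), and the lowest was Flt1 (0.266). Esam and Kdr, which did not pass the test, together made up 51.6 to 59.4% of the summed normalized CPM of the markers in C185G libraries, 41.8 to 51.5% in C185Gneo and 42.5 to 53.8% in WT. The sum of all 29 overlapped between genotypes, at 389.9 ± 16.3 in C185G, 419.4 ± 64.4 in C185Gneo and 438.0 ± 55.1 in WT (SD, n = 4 each). Without Esam, Kdr and Cd34, the other 26 markers summed to 118.4 to 142.9 in C185G, 179.4 to 272.1 in C185Gneo and 165.4 to 269.7 in WT, with no C185G library in the range of another genotype. This set was formed after the values were seen, and it carries no test. Of the 29 markers 6 share exon bases with another gene, where reads cannot be told apart; besides Egfl7, Cd34 and Nos3 these were Ace (295 bases), Ecscr (62) and Eng (61).

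Of the 29, 22 were also divided by what is known of their expression elsewhere, while Ace, Podxl, Tmem100, Nos3, Car4, Tek and Ednrb were put in neither division. Of 13 measured markers taken as largely restricted to endothelium, 8 fell against WT (median -0.79) and 10 against C185Gneo (median -0.89), and none rose. The shares that fell were 61.5% and 76.9%, where 27.8% and 28.7% of all genes fell. Of 9 markers also known from blood cells or platelets, 6 fell and 1 rose against WT (median -0.43), and 5 fell and 1 rose against C185Gneo (median -0.38). Of these, 66.7% and 55.6% fell. The share that rose was 11.1% in each comparison, where 27.3% and 29.2% of all genes rose. The difference between both divisions was not tested.

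Libraries of 1 genotype differed along the markers in common. For each library the deviation of every marker from its mean over the 12 libraries was taken on the log2 scale. The median deviation was -0.28, -0.34, -0.56 and -0.40 in C185G 1 to 4, 0.07, 0.10, 0.04 and 0.56 in C185Gneo 1 to 4, and -0.16, -0.04, 0.38 and 0.43 in WT 1 to 4. All C185G libraries were lower than all control libraries on this measure. C185Gneo 4 had the highest level of its group for 26 of the 29 markers. WT 4 had the highest for 19 and WT 1 the lowest for 19. No C185G library was the highest of its group for more than 9. Without C185Gneo 4 and WT 4, 13 markers still fell against WT (median -0.45) and 14 against C185Gneo (median -0.57).

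**Figure D3:**
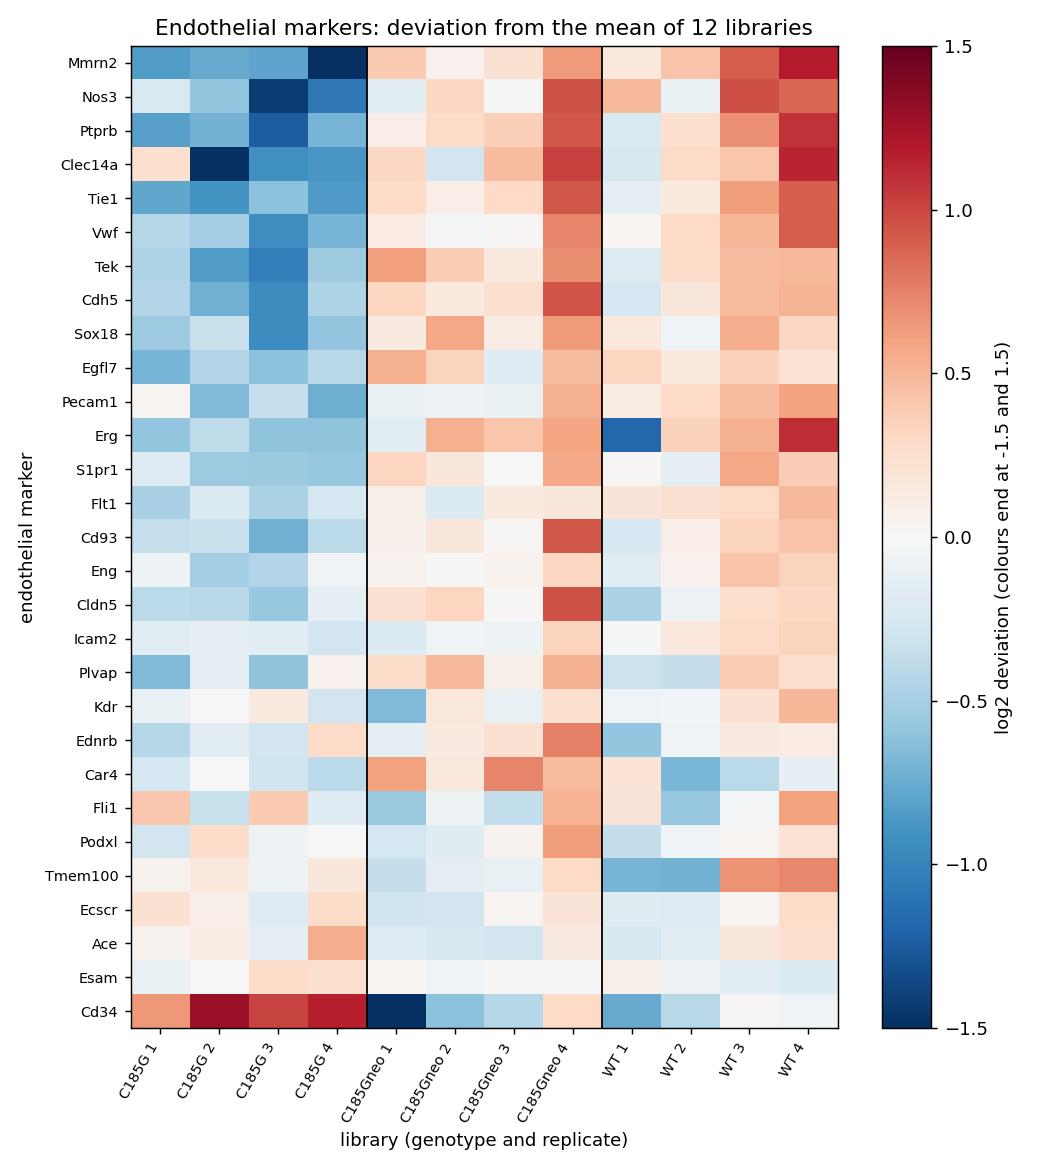
Log2 deviation of each of the 29 endothelial markers (rows, ordered by change in C185G against WT) from its mean over the 12 libraries (columns, 4 of each genotype). Blue is below and red above the mean. The C185G columns are mostly blue from Mmrn2 down to Plvap, the C185Gneo 4 and WT 4 columns are the reddest of their groups, and the Cd34 row is red in C185G.

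No marker passed the test between C185Gneo and WT. In limma 0 of 29 passed, where 0.541% of all genes did (0.249% higher and 0.292% lower in C185Gneo), 1 (Car4) had an unadjusted p under 0.05, and limma with voom weights on the recovered counts also called 0. The median log2 fold change was -0.02. Changes ran from -0.42 in Cd34 to 0.74 in Car4 (adjusted p = 0.298). Cdh5 was at 0.19 (SE 0.202, adjusted p = 0.858), Pecam1 at -0.31 (SE 0.185, adjusted p = 0.673) and Kdr at -0.25 (SE 0.191, adjusted p = 0.767).

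A further 61 genes of endothelial signalling and structure were taken from a list that also names lymphatic genes, and 57 were measured. Against WT, 22 fell and 4 rose (median -0.38), so 38.6% fell where 27.8% of all genes did. Against C185Gneo, 18 fell and 7 rose (median -0.32), and the 31.6% that fell were close to the 28.7% of all genes. Among 10 genes of NOTCH signalling and arterial identity, 5 fell and 0 rose in each comparison. The NOTCH receptor genes Notch1 and Notch4 changed by -0.48 (adjusted p = 3.28e-05) and -0.72 (adjusted p = 0.00501) against WT, the ephrin gene Efnb2 by -0.78 (adjusted p = 3.73e-06) and the NOTCH ligand gene Jag2 by -0.57 (adjusted p = 0.00195). Among 9 genes of the TGF-beta, BMP and angiopoietin axis, 5 fell against WT, and 4 fell and 1 rose against C185Gneo. Nrp1, the neuropilin co-receptor of VEGF, averaged 114.9 ± 42.9 normalized CPM in C185G, 510.9 ± 85.05 in C185Gneo and 452.7 ± 83.4 in WT (SD, n = 4 each) and changed by -2.03 (adjusted p = 2.27e-05) against WT and -2.21 (adjusted p = 1.09e-05) against C185Gneo. Vegfa, the growth factor that alveolar epithelium supplies to the capillaries, changed by -0.67 (adjusted p = 4.49e-05) against WT and -0.57 (adjusted p = 0.000152) against C185Gneo. The receptor gene Ephb4 changed by -0.81 (adjusted p = 8.41e-05) against WT and Smad6, an inhibitor of BMP signalling, by -0.61 (adjusted p = 0.000147).

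Of 8 further transcription factors, 4 fell against WT, and 4 fell and 1 rose against C185Gneo. The flow-responsive factor Klf2 changed by -1.04 (adjusted p = 4e-06) against WT and Hhex by -0.87 (adjusted p = 0.00129). Nr2f2, the venous factor COUP-TFII, changed by -0.59 (adjusted p = 0.000152) and Sox7 by -0.94 (adjusted p = 0.0322). The 24 other surface and intracellular proteins held 8 that fell and 1 that rose against WT, and 4 of each against C185Gneo. So 33.3% fell against WT, where 27.8% of all genes did, and 16.7% against C185Gneo, where 28.7% did. Rasip1, a regulator of vessel lumen formation, changed by -0.97 (adjusted p = 2.91e-05) and the adhesion receptor Adgrf5, which AEC2 also express, by -0.70 (adjusted p = 1.1e-05) against WT. Cd36, the fatty acid receptor of microvessels and macrophages, changed by -0.56 (adjusted p = 3.22e-06) against WT. Vcam1, an adhesion molecule of activated endothelium and mesenchyme, rose by 1.19 (adjusted p = 0.00106) against WT and 1.51 (adjusted p = 0.000179) against C185Gneo. Per kb of exon in WT, Cd36 (246.8), Adgrf5 (118.3), Klf2 (94.9), Nrp1 (46.3), Efnb2 (22.8) and Notch1 (10.05) were above the marker Pecam1 (4.73). Nr2f2 (3.75), Rasip1 (2.43), Hhex (0.601), Sox7 (0.542) and Notch4 (0.336) were below it. Which cells the RNA of these further genes came from was not tested, so their counts cannot be read as vascular alone. Lymphatic genes did not share the direction of the blood vessel markers against WT: 0 of 6 fell and 3 rose, with a median of 0.59. Against C185Gneo 1 fell and 1 rose (median 0.40). The share that rose was 50% against WT and 16.7% against C185Gneo, where 27.3% and 29.2% of all genes rose. Mmrn1 changed by 0.95 (adjusted p = 0.000982), the receptor gene Flt4 by 0.61 (adjusted p = 0.0299) and Reln by 0.58 (adjusted p = 0.011) against WT, while the hyaluronan receptor gene Lyve1 stood at 0.59 (adjusted p = 0.0589). The remaining genes went the other way, with Prox1 at -0.16 (adjusted p = 0.673) and Ccl21a at -0.38 (adjusted p = 0.146) against WT. Ccl21a was the gene that fell against C185Gneo, with a change of -1.07 (adjusted p = 0.000746). The lymphatic genes summed to 24.4 to 39.4 normalized CPM in C185G, 21.3 to 31.8 in C185Gneo and 16.2 to 27.2 in WT. The difference between lymphatic and blood vessel genes was not tested.

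Markers of other residual cells moved in several directions beside the endothelial ones, and their part in the endothelial results was not tested. The 15 mesenchymal markers, all measured, summed to 1679 to 2027 normalized CPM in C185G, 476.5 to 1217 in C185Gneo and 987.6 to 1355 in WT. Of these genes 4 rose and 0 fell against WT, a share higher of 26.7% where all genes gave 27.3%. Against C185Gneo 13 rose and 0 fell, or 86.7% higher where all genes gave 29.2%. The 7 mesothelial markers summed to 1523 to 1752 in C185G, 706.9 to 1390 in C185Gneo and 1110 to 1328 in WT. Of these 1 was higher and 0 lower against WT, and 4 were higher and 0 lower against C185Gneo. The shares higher were 14.3% and 57.1%, where all genes gave 27.3% and 29.2%. Pericytes and smooth muscle, the mural cells that accompany vessels, had 11 of 13 markers measured. These summed to 218.8 to 280.2 in C185G, 131.8 to 307.5 in C185Gneo and 328.2 to 605.7 in WT. Against WT 5 were lower and 1 higher, and against C185Gneo 1 was lower and 3 higher. The share lower against WT was 45.5%, where all genes gave 27.8%. The share higher against C185Gneo was 27.3%, where all genes gave 29.2%. C185Gneo 1 was the lowest of the 12 libraries in all 3 of these sums, whereas its median endothelial deviation was like that of C185Gneo 2 and 3.

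Blood cell markers were also measured, since some endothelial genes are shared with them. The 12 measured of 13 pan-leukocyte markers summed to 284.6 to 314.9 normalized CPM in C185G, 397.2 to 460.3 in C185Gneo and 425.8 to 532.1 in WT. Most of that was Lcp1, and without it the sums were 85.0 to 104.2 in C185G, 64.9 to 82.8 in C185Gneo and 75.7 to 94.5 in WT. Ptprc, which encodes CD45, averaged 8.03 ± 1.12 normalized CPM in C185G, 7.28 ± 0.855 in C185Gneo and 7.82 ± 1.34 in WT (SD, n = 4 each) and changed by 0.04 (adjusted p = 0.818) against WT and 0.14 (adjusted p = 0.437) against C185Gneo. Of the myeloid list 9 of 15 were measured, and without Lyz2, which AEC2 express, they summed to 217.4 to 270.5 in C185G, 131.9 to 169.3 in C185Gneo and 163.4 to 199.6 in WT. Lymphocyte markers (3 of 10 measured) summed to 17.3 to 21.1 in C185G, 20.2 to 26.1 in C185Gneo and 20.2 to 29.0 in WT. For megakaryocytes and platelets 3 of 10 were measured, with sums of 11.2 to 14.3, 14.0 to 15.4 and 13.6 to 16.3 in the same order. Against WT only 1 of the 3 passed, Pf4, with a list median of -0.27 and a highest change of 0.008. Against C185Gneo 2 fell, with a median of -0.42. The shares lower were 33.3% and 66.7%, where all genes gave 27.8% and 28.7%. The lowest count in this list was 10, so depth limits what can be said of it. Pf4, the platelet chemokine, averaged 0.688 ± 0.134 normalized CPM in C185G, 1.59 ± 0.505 in C185Gneo and 2.59 ± 0.972 in WT and changed by -1.82 (adjusted p = 0.000117) against WT and -1.15 (adjusted p = 0.0037) against C185Gneo. Alveolar type 1 markers, from the epithelial cells that share a basement membrane with the capillaries, summed to 2625 to 3378 in C185G, 2722 to 3166 in C185Gneo and 2692 to 3374 in WT, and the club and ciliated markers to 5579 to 6670, 6380 to 8286 and 6616 to 8948. Of the 9 club and ciliated markers 4 were lower and 0 higher against WT, and 5 lower and 0 higher against C185Gneo. All 12 AEC2 markers were lower against WT (median -1.36). Against C185Gneo 11 AEC2 markers were lower and 1, Sftpc, was higher (median -1.43). The shares lower were 44.4% and 55.6% for club and ciliated markers and 100% and 91.7% for AEC2 markers. All genes gave 27.8% and 28.7%. No measured gene of these lists was at 0 counts in any library.

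**Figure D4:**
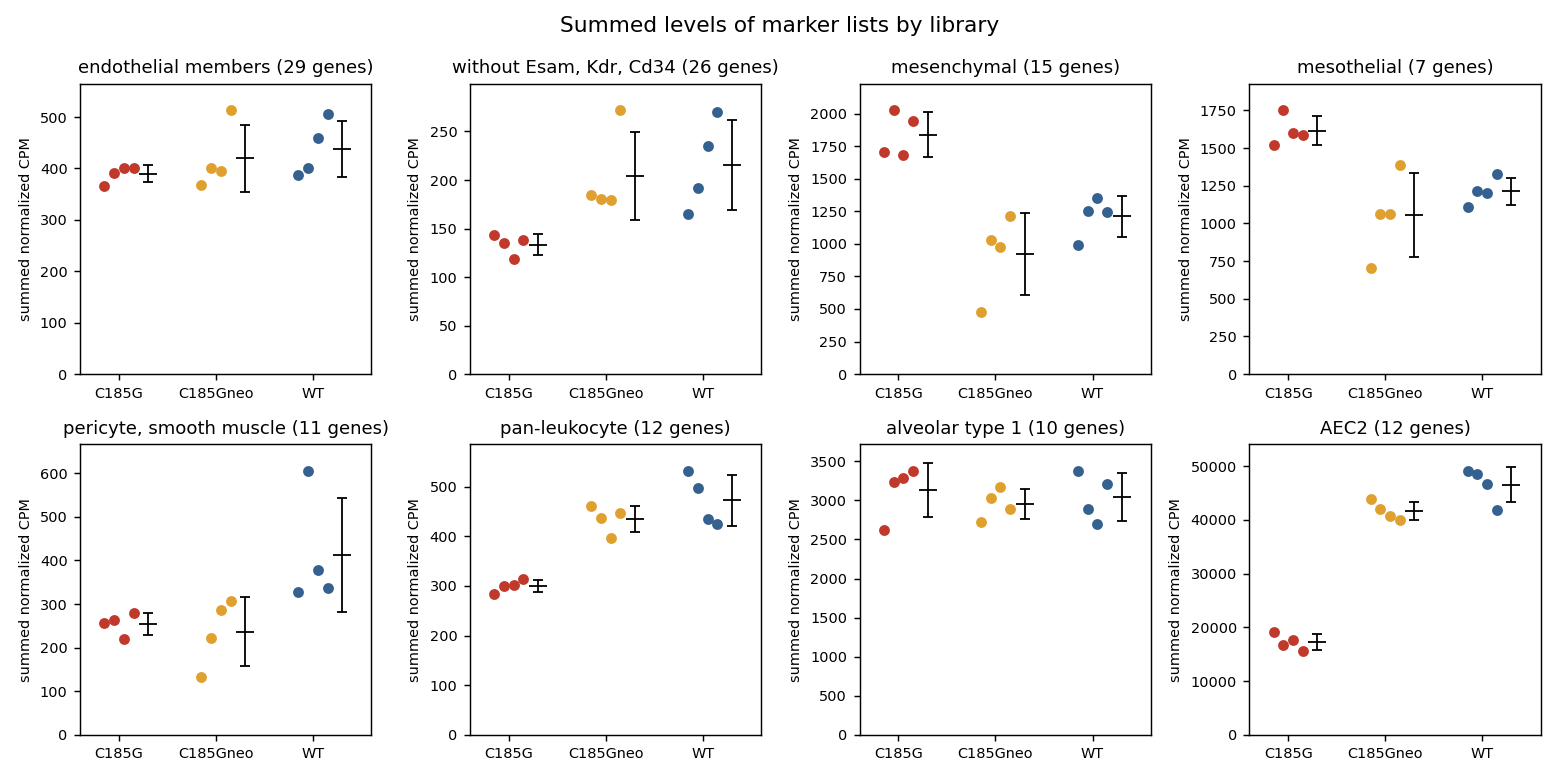
Summed normalized CPM of marker lists in each library, with the number of genes in each panel title; points are libraries 1 to 4 of a genotype from left to right, and the bars give the mean and SD. The 29 endothelial markers overlap between genotypes, and the 26 without Esam, Kdr and Cd34 are lowest in C185G. The set of 26 was formed after the values were seen, and it carries no test. Mesenchymal and mesothelial sums are highest in C185G, and AEC2 and pan-leukocyte sums are lowest in C185G. Most of the pan-leukocyte sum is Lcp1. Without Lcp1 its mean was highest in C185G (93.2, against 73.0 in C185Gneo and 84.7 in WT).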

How the data were processed

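Each library has 1 deposited file of log2 values for the same 16080 Ensembl genes. The spacing of the values shows that the authors took log2 of a whole count plus 0.5, after scaling by a factor for each library. Counts were recovered from the deposited values and 100% were whole within 1e-06; normalized CPM are these counts on the authors' scaling. Scaled totals differed by at most 1.084 times. STAR, limma and mm10 are listed, without versions, in the submitters' processing notes. Nothing on how reads were counted, with which annotation or strand setting, is given in the sources used here. Counting error and the added 0.5 weigh most on genes with few counts. The added 0.5 pulls their changes toward 0, while counting error can move them either way.

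Symbols, coordinates and exon lengths came from GENCODE mouse release 21 (GRCm38), which named 16017 identifiers and left 63 unnamed. Promoters are RefSeq windows of GRCm38.p6. A single model for all genes and 12 libraries, with a coefficient for each genotype, was fitted with limma 3.58.1 under R 4.3.3, using lmFit and a robust eBayes with a mean-variance trend. Since the unit is log2, limma and no count model was the main test. It was tested on simulated data. Other software was the R package data.table (version 1.17.8), Python 3.11.15, pandas 2.3.3 and matplotlib 3.10.9.

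The markers, gene lists and tests were chosen with earlier results of these data known. Values per library are given for markers called in any contrast and for Pecam1, Cdh5 and Kdr, with standard errors for up to 12 by smallest p against WT, and ranges for the others. Up to 4 genes per further list are named, by smallest p, and a few more for context after their values were seen. The 22 alternatives were other fits, scalings and filters and each library left out. The joint removal of C185Gneo 4 and WT 4 was added after the values were seen.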

Additional observations from a re-analysis of the deposited data

Results flagged for a closer look

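In groups of 4 libraries, a value is listed here when its gap to the nearest other library, as a share of the group's whole range, is above Dixon's critical value for 4 values. Of 126 groups examined 10 met this, 7 of them among 87 groups of endothelial markers, and chance gives about 5%. C185Gneo 4 was far above the other C185Gneo libraries for Pecam1 (gap 0.982), Eng (gap 0.875) and Cd93 (gap 0.841). In C185G, S1pr1 was highest in C185G 1 (gap 0.937) and Erg in C185G 2 (gap 0.943), while Icam2 (gap 0.907) and Mmrn2 (gap 0.905) were lowest in C185G 4. Among summed lists, the alveolar type 1 markers were lowest in C185G 1 (gap 0.83), the lymphocyte markers highest in C185G 1 (gap 0.837) and the club and ciliated markers lowest in C185Gneo 1 (gap 0.844).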

How the results depend on the processing

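Every alternative kept the median of the markers below 0 in both C185G comparisons. With a minimum mean of 5 CPM only 13 markers were tested, and by that construction 9 were called and 8 lower in each comparison, with a median against C185Gneo of -0.48. Leaving out 1 library gave 13 to 19 called, 12 to 18 lower and medians of -0.70 to -0.45 against WT, 15 to 20, 14 to 19 and -0.77 to -0.57 against C185Gneo, and 0 called with medians of -0.15 to 0.12 for C185Gneo against WT. With library totals as the scaling, 14 fell and 2 rose against WT, and 15 fell and 1 rose against C185Gneo. Calls held under all alternatives that tested the gene for 12 of 17 against WT and 14 of 19 against C185Gneo. Same-numbered libraries deviated together with r of -0.13 to 0.18, and 4 of 12 were closest to their own number, so the numbers were not taken to pair the samples. The replicate block left 16 lower and 1 higher against WT, and gave 18 lower and 2 higher against C185Gneo, with Erg (adjusted p = 0.031) and Ace (0.0396) gained and Pecam1 lost (0.0622).

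No called change turned round. Uncalled changes that turned when 1 library was left out ranged, against WT, over -0.084 to 0.108 for Podxl, -0.157 to 0.321 for Tmem100, -0.189 to 0.203 for Fli1, -0.135 to 0.16 for Car4 and -0.223 to 0.033 for Ednrb, and, against C185Gneo, over -0.185 to 0.111 for Podxl and -0.16 to 0.142 for Kdr. Ednrb against WT was also above 0 with quantile normalization (0.027), with library totals (0.019) and without both C185Gneo 4 and WT 4 (0.012). Against C185Gneo, Podxl was at 0.111 without both of these libraries, and Kdr at -0.012 with library quality weights. The causes of these changes were not tested. Clec14a, Car4, Erg, Tmem100 and Sox18 had few counts, and depth limits what can be said of them. The same limit holds for Nos3 (15 to 79 counts per library), Ednrb (17 to 43), Fli1 (20 to 44) and Ecscr (24 to 37). Mmrn2 had 35, 41, 34 and 17 counts in the C185G libraries.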
